A study of Saccharomyces cerevisiae with 49 samples.

Results

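The 55 genes described here act in the secretory pathway of Saccharomyces cerevisiae, from entry into the endoplasmic reticulum (ER) to fusion of vesicles with the plasma membrane. They were chosen by name alone: the SEC genes that carry a number, together with SAR1, SFB2, SFB3, COP1, RET1, RET2, RET3, ARF1, ARF2, YPT1, BET1, BET3, BOS1, SSO1, SSO2, SNC1, SNC2, EXO70 and EXO84. They are 55 of the 5449 S. cerevisiae genes with a probe set of their own on the array, and each has 1 probe set. The name rule also takes in RET1, which in the annotation used here is a large subunit of RNA polymerase III and not a coat protein, so it is described apart from the other 54. The series sampled a single continuous culture of the haploid strain CEN.PK113-7D, mating type a, grown in a fermentor on glucose medium while it oscillated with a period of about 4 h. A sample was taken every 5 min, 49 in all, and each was measured on 1 Affymetrix Yeast Genome 2.0 array. There was no treatment, mutant or second strain, and the only condition that varied was the phase angle of the oscillation, which the labels give for every sample from 244.11 to 614.63 degrees without saying which event is phase 0. The 47 samples of the first pass were divided into 6 windows 60 degrees wide, which hold 8 samples apiece except phase 300-360 with 7, and the last 2 samples repeated an earlier phase.

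Secreted and membrane proteins enter the ER through the Sec61 channel, leave it in vesicles shaped by the COPII coat, are returned from the Golgi in vesicles shaped by the COPI coat, and reach the cell surface in vesicles that the exocyst tethers to the plasma membrane. Small GTPases (Sar1, Arf1, Ypt1, Sec4) switch these steps on, and SNARE proteins on the vesicle and on the target membrane pair to fuse them. The SEC genes take their name from yeast mutants that fail to secrete, and in yeast the route feeds the growing bud and the cell wall.

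All 55 probe sets passed the filter on dim signals, with median signals from 745 to 11009. Signals are array intensities without a physical unit, set to the same median on every array, and the level of a probe set was not compared with that of another. Of the probe sets that the array holds for genes of other yeasts, 38 carry the same symbols, and their median signals ran from 0.745 to 21.01. Before scaling, the median signal of an array ran from 1450 to 2582. Each window holds consecutive samples from the same culture, and the p-values therefore cover the scatter among those samples but not that among cultures. In a culture measured in bulk, fewer cells of a kind and less RNA per cell cannot be told apart. The ratio of 3′ to 5′ control probe sets for TDH1, a measure of RNA or cDNA length, was higher in phase 0-60, at 0.316 ± 0.166 on the log2 scale (SD, n = 8), than in the other samples, at 0.066 ± 0.071 (SD, n = 41). The same ratio shifted less for ACT1 (0.327 ± 0.130 against 0.227 ± 0.089), SPT15 (1.098 ± 0.128 against 0.993 ± 0.085) and RIP1 (0.275 ± 0.123 against 0.218 ± 0.092). For RIP1 it was higher in phase 300-360, at 0.311 ± 0.084 (SD, n = 7). The part of RNA or cDNA length in the results for phase 0-60 was not tested. Without the 3 arrays of the highest TDH1 ratio, at 25, 32.66 and 40.31 degrees, no member called in phase 0-60 or 60-120 changed direction. In phase 0-60, 17 members were then high and 24 low, and SFB3, COP1, RET2, SEC22, SEC1 and EXO84, among the genes given in full, lost their call there (adjusted p from 0.0511 to 0.408).

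Nearly all of the genes moved with the phase angle, but most of them by little. A curve with 2 harmonics of the phase angle passed the test for 54 of the 55 members (limma, Benjamini-Hochberg adjusted p under 0.05), beside 94.4% of all 5469 probe sets tested, so the share was close to that of the array as a whole. The exception was SEC9, which encodes a SNARE of the plasma membrane (adjusted p = 0.0573). The median fitted range of the members, from trough to peak, was 0.46 on the log2 scale (1.38-fold), and that of all probe sets tested was 0.84 (1.79-fold). Fitted ranges of 49 of the 55 members lay below the median of all. Only SEC53, SNC1, SEC12 and RET1 reached 2-fold, that is 4 of 55, whereas 41.2% of all probe sets tested did. The curve accounted for between 0.190 and 0.869 of the variance of a member, with a median of 0.622, beside a median of 0.650 over all.

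**Figure D1:**
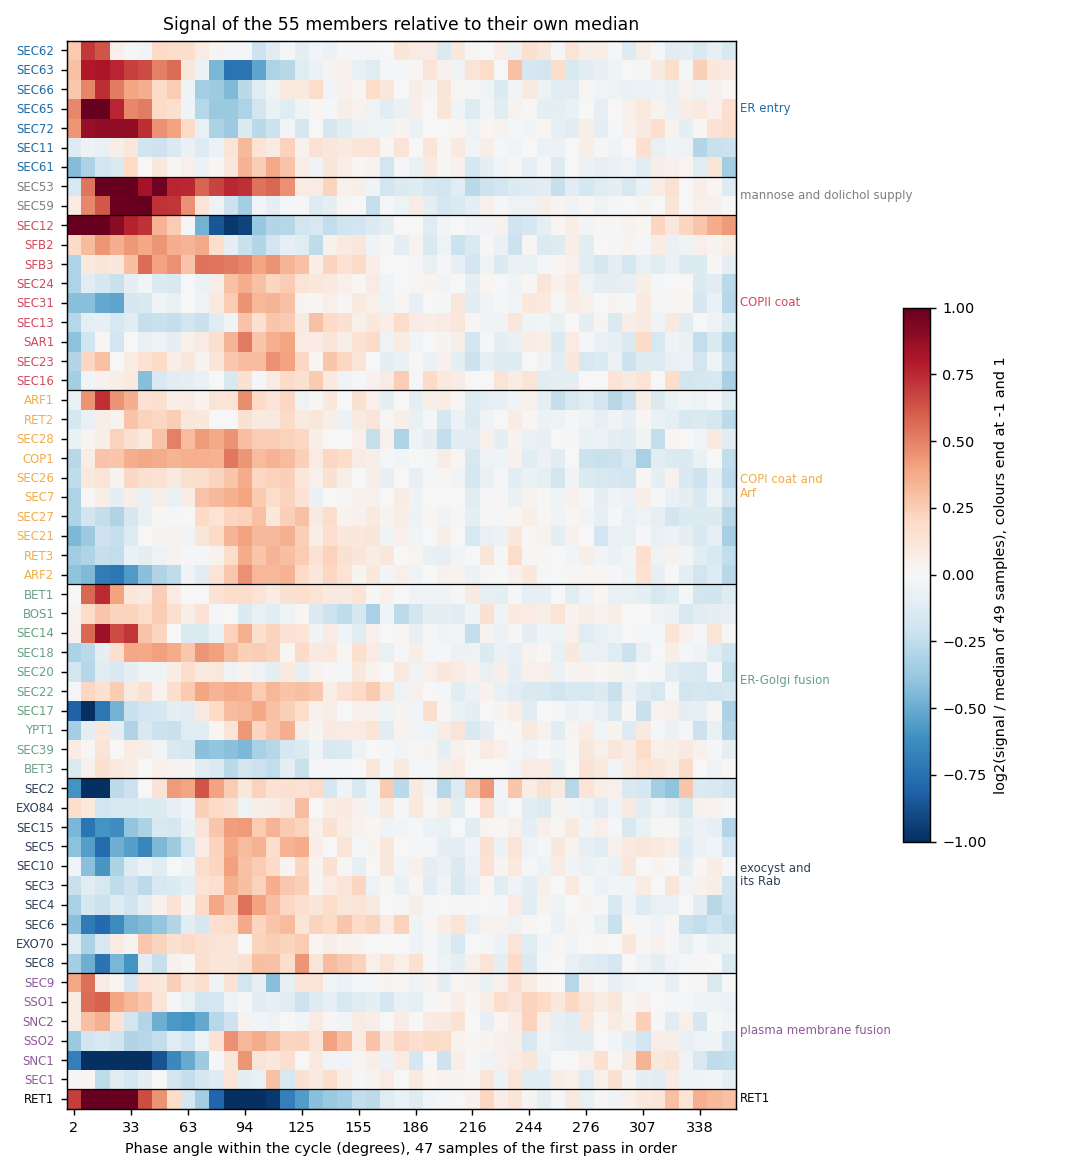
Signal of the 55 members in the 47 samples of the first pass, in order of the phase angle in degrees along the x axis, with 1 gene per line grouped by role. Colours give the log2 ratio of a signal to the gene's own median over 49 samples: most of the strong colour lies below 120 degrees, red at 0 to 60 for the ER entry genes and red at 60 to 120 for the COPI and exocyst genes.

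Most calls fell in 2 neighbouring windows. In phase 0-60, 23 members were high and 26 low against the mean of the other 5 windows (limma, adjusted p under 0.05), beside 39.8% of all probe sets high and 43.2% low. The members' median difference was -0.06 on the log2 scale and that of all probe sets -0.03. In phase 60-120, 33 members were high and 10 low, beside 38.2% and 30.6% of all, and the median difference was 0.20 for the members and 0.07 for all. High members were thus 60% of the 55 in this window. The most frequent course, in 21 members (38.2%), was low in phase 0-60 and high in phase 60-120, beside 25.4% of all probe sets. The reverse, high and then low, held for 8 members (14.5%), beside 23.2% of all. A further 8 were high in both windows, beside 6.09%, and none was low in both, beside 3.38%.

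ER entry genes were mostly high in phase 0-60 and low in the next window. Of the 7, 5 were high and 1 low in phase 0-60, beside 39.8% and 43.2% of all probe sets. In phase 60-120, 1 was high and 4 low, beside 38.2% and 30.6%. High and then low was also the course of 23.2% of all. As deposited, 5 of the 7 were high in phase 0-60 and 4 low in phase 60-120, with no other call. SEC63 encodes the J-domain protein that brings the chaperone Kar2 to the channel. Its signal in the 8 samples of phase 0-60 was 2785 at the lowest, 3613 at the median and 3995 at the highest, and the other 39 samples of the first pass ran from 1364 to 2780.4 with a median of 2241. The groups did not overlap, and all 8 samples of the window lay above all others. The difference was 0.69 on the log2 scale (SE 0.064, 1.62-fold, adjusted p = 4.55e-13). In phase 60-120 SEC63 dropped to between 1364 and 2454, with 6 of the 8 samples below all others and a log2 difference of -0.515 (SE 0.064, adjusted p = 3.74e-09).

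SEC72 and SEC66 encode partners of Sec63 in the complex that imports finished proteins. SEC72 signals in phase 0-60 were 2769 at the lowest, 3662 at the median and 3886 at the highest, against 1633 to 2401 elsewhere with a median of 2056. Again no sample of the window overlapped the rest, and the log2 difference was 0.73 (SE 0.052, 1.66-fold, adjusted p = 3.66e-16). In phase 60-120 it was -0.28 (SE 0.052, adjusted p = 9.30e-06). SEC66 took the same course, with all 8 samples of phase 0-60 above all others and log2 differences of 0.44 and then -0.27. SEC65 is a subunit of the signal recognition particle, which brings nascent chains to the ER. Its highest signal was 6941 at 17.35 degrees and its lowest 2419 at 78.58 degrees, with a log2 difference of 0.64 in phase 0-60 (SE 0.065) and -0.34 in phase 60-120 (SE 0.065). SEC62, the remaining member of the import complex, was high in phase 0-60 by 0.25 and at -0.05 in phase 60-120, where it did not pass the test.

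SEC61, the channel itself, ran differently. In phase 0-60 SEC61 signals were 6112 at the lowest, 7848 at the median and 9453 at the highest, which overlapped the 6476 to 10729 of the other samples, and the difference of -0.10 did not pass the test (SE 0.055, adjusted p = 0.0756). It was high in phase 60-120, at 7930.3 to 10729 with a median of 9336, by 0.22 on the log2 scale (SE 0.055, 1.16-fold, adjusted p = 0.000649). The Pearson correlation of SEC61 with SEC63 over the 49 samples was -0.438, whereas the median over the 6 pairs of SEC62, SEC63, SEC66 and SEC72 was 0.687. SEC11, the catalytic subunit of signal peptidase, had the smallest fitted range of the called members with this role (0.28, 1.21-fold). It was low in phase 0-60 by a narrow margin, with signals of 3697 to 4627 and a median of 3987 against a median of 4297 elsewhere (log2 difference -0.10, SE 0.043, adjusted p = 0.0348), and the groups overlapped in full. In phase 60-120 its difference of 0.09 did not pass (adjusted p = 0.0518). The SEC11 call in phase 0-60 was lost as deposited (adjusted p = 0.351) and in odd and even samples (0.131 and 0.306).

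The pair of genes that supply sugar for glycosylation were both high in phase 0-60. SEC53 encodes phosphomannomutase, which makes the mannose phosphate used for sugar donors. The SEC53 signal in phase 0-60 was 6197 at the lowest, 12932 at the median and 15239.7 at the highest, against a median of 6619 in the other samples, and 6 of the 8 lay above all others. The sample at 2.04 degrees was still low. The log2 difference was 0.705 (SE 0.075, 1.63-fold, adjusted p = 2.03e-11). Unlike the ER entry genes, SEC53 stayed up in phase 60-120, at 9476 to 11699 with a median of 10698, a log2 difference of 0.54 (SE 0.075, 1.45-fold, adjusted p = 5.00e-08), and it was low in each of the other 4 windows.

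SEC59 encodes dolichol kinase, which makes the lipid carrier for the sugar chain. In phase 0-60 it gave signals of 1229 at the lowest, 1911 at the median and 2334 at the highest, and 7 of the 8 samples lay above all 39 others, which ran from 921 to 1598. This gave a log2 difference of 0.72 (SE 0.067, 1.65-fold, adjusted p = 4.66e-13). In phase 60-120 the difference was -0.14 and did not pass the test (adjusted p = 0.0578). The fitted ranges were 1.05 for SEC53 (2.07-fold) and 0.80 for SEC59 (1.74-fold).

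**Figure D2:**
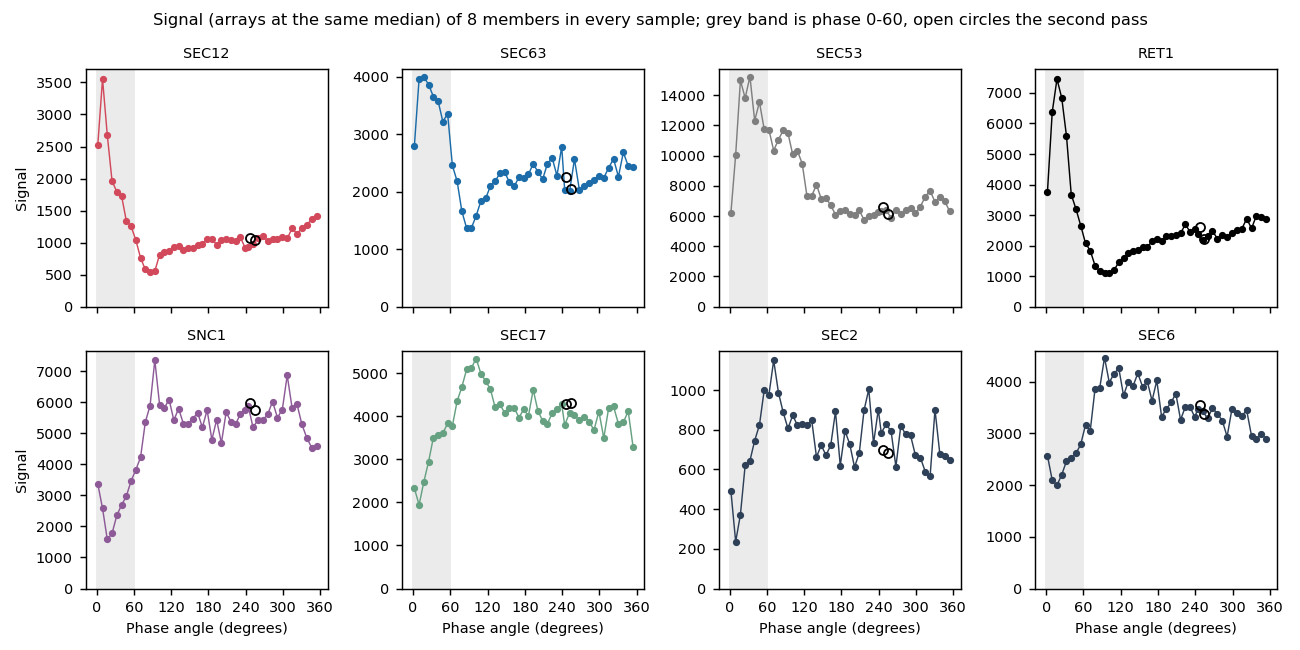
Signal, on a linear axis from 0, of 8 members against the phase angle in degrees, with the grey band marking phase 0-60 and open circles the 2 samples of the second pass. SEC12, SEC63, SEC53 and RET1 reach their highest signals inside the band (3554, 3995, 15239.7 and 7457), while SNC1, SEC17, SEC2 and SEC6 have their lowest there (1581, 1944, 236 and 2000.4).

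Within the COPII genes SEC12, the activator of the coat, ran opposite to SAR1, SEC24 and SEC31, and not to all of the coat. Phase 0-60 had 3 of the 9 genes high and 5 low, beside 39.8% and 43.2% of all probe sets. In phase 60-120, 5 were high and 1 low, beside 38.2% and 30.6%. As deposited, 2 were low in phase 0-60. SEC12 encodes the ER membrane protein that loads Sar1 with GTP. SEC12 signals in phase 0-60 were 1255 at the lowest, 1878 at the median and 3554 at the highest, and the other samples ran from 538 to 1412 with a median of 1032. The peak stood at 9.7 degrees, 6 of the 8 samples lay above all others, and by the end of the window the signals overlapped with the rest. This was a log2 difference of 1.02 (SE 0.102, 2.03-fold, adjusted p = 3.52e-12). In phase 60-120 the signals were 538 at the lowest, 785 at the median and 1041 at the highest, with 7 of the 8 samples below all others (log2 difference -0.71, SE 0.102, adjusted p = 7.98e-08). From the sample at 9.7 to that at 86.24 degrees SEC12 thus spanned 6.61-fold.

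SAR1, the GTPase that Sec12 activates, was low and then high. In phase 60-120 its signals were 8869 at the lowest, 10625 at the median and 12306 at the highest, with 5 of the 8 samples above all others. Its log2 differences were -0.16 in phase 0-60 (SE 0.049, adjusted p = 0.00240) and 0.315 in phase 60-120 (SE 0.049, adjusted p = 4.58e-07). SEC31, of the outer coat, took the same course (-0.33 and 0.28). SEC23, of the inner coat, was high in phase 60-120 alone of these windows (0.27), and SEC13, of the outer coat, was low in phase 0-60 (-0.215). The Pearson correlation of SEC12 with SAR1 over the 49 samples was -0.667, and the median over the 10 pairs of SAR1, SEC23, SEC24, SEC13 and SEC31 was 0.619. SEC16, which organises the sites where the coat forms, had the smallest fitted range of the role (0.265, 1.20-fold). It was low in phase 0-60, at 1716 to 2457 with a median of 2199 against 2312 elsewhere (log2 difference -0.13, SE 0.054, adjusted p = 0.0248), with the groups overlapping. That call was lost as deposited (adjusted p = 0.200) and in odd and even samples (0.116 and 0.233).

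SEC24 and its relatives SFB2 and SFB3 encode the cargo-binding subunit of the coat, and their courses differed. SEC24 signals in phase 0-60 were 3566 at the lowest, 3989 at the median and 4315 at the highest, against a median of 4449.9 elsewhere (log2 difference -0.18, SE 0.040, adjusted p = 6.41e-05). In phase 60-120 they reached 5678, with 5 of 8 samples above all others (0.21, SE 0.040, adjusted p = 1.14e-05). SFB2 was high in phase 0-60, at 2138 to 2544 with a median of 2435 against 1829 elsewhere, and 4 of its 8 samples lay above all others. Its log2 difference was 0.40 (SE 0.054, 1.32-fold, adjusted p = 7.51e-09), and in phase 60-120 it was -0.04, which did not pass the test. SFB3 was high in both windows. In phase 60-120 SFB3 signals were 3989.5 at the lowest, 4539 at the median and 4768 at the highest, within the 2650.2 to 4816 of the other samples but above their median of 3233 throughout (log2 difference 0.42, SE 0.054, adjusted p = 5.31e-09). In phase 0-60 it climbed from 2650.2 at 2.04 degrees to 4816 at 40.31 degrees, a log2 difference of 0.15 (SE 0.054, adjusted p = 0.00964).

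All 10 genes of the COPI coat and its Arf proteins were high in phase 60-120, beside the 38.2% of all probe sets given above. In phase 0-60 they were split, with 5 high and 5 low, beside 39.8% and 43.2% of all probe sets. All 10 differences in phase 60-120 were above 0 under each scaling, but 6 passed with the values as deposited and 8 with quantile normalization. In phase 0-60, 1 was high and 1 low as deposited, and 2 were high and 4 low without the 3 arrays of the highest TDH1 ratio. COP1, the alpha subunit of coatomer, had signals of 6943 at the lowest, 7102 at the median and 8018 at the highest in phase 60-120, against a median of 5530.0 in the other samples, and only the samples of phase 0-60 overlapped the window. Its log2 difference was 0.37 in phase 60-120 (SE 0.049, 1.29-fold, adjusted p = 1.32e-08) and 0.19 in phase 0-60 (SE 0.049, adjusted p = 0.000436), where 7 samples lay between 5869 and 7284 and the sample at 2.04 degrees at 4605. COP1, SEC26 (beta), SEC28 (epsilon) and RET2 (delta) were high in both windows. SEC21 (gamma), SEC27 (beta prime) and RET3 (zeta) were low and then high, with differences of -0.20, -0.18 and -0.22 in phase 0-60 and 0.30, 0.22 and 0.20 in phase 60-120. RET2 had the smallest fitted range of the role (0.28, 1.22-fold), with signals of 3500.1 to 4018 and a median of 3775 in phase 60-120 against a median of 3439 elsewhere (0.11, SE 0.039, adjusted p = 0.0147). RET2 no longer passed in phase 60-120 as deposited (adjusted p = 0.335), with quantile normalization (0.690) or in odd or even samples (0.168 and 0.1565).

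SEC7 encodes an exchange factor that activates Arf proteins at the Golgi. In phase 60-120 its signals were 5367 at the lowest, 6158 at the median and 6685 at the highest, and 7 of the 8 samples lay above all others, which ran from 4109.5 to 5625. SEC7 was high by 0.29 on the log2 scale (SE 0.035, adjusted p = 2.30e-09). ARF2 followed a similar course over a wider range, whereas ARF1 had its highest signal early. ARF2 signals in phase 0-60 were 6670.1 at the lowest, 8185 at the median and 9236 at the highest, and 7 of the 8 samples lay below all others (log2 difference -0.52, SE 0.051, 0.696-fold, adjusted p = 1.64e-12). In phase 60-120 they reached 15148 (0.31, SE 0.051, adjusted p = 1.48e-06). ARF1 signals in phase 0-60 were 8381 at the lowest, 10642 at the median and 14702 at the highest, the last at 17.35 degrees, against a median of 8769 elsewhere, with a log2 difference of 0.29 (SE 0.055, adjusted p = 4.91e-06).

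Genes of tethering and fusion between ER and Golgi took several courses. Of 10, 5 were high and 3 low in phase 0-60, beside 39.8% and 43.2% of all probe sets. In phase 60-120, 4 were high and 2 low, beside 38.2% and 30.6%. With 10 genes, these counts were not far from those shares. As deposited, 3 were high and 1 low in phase 0-60 and 3 high and 1 low in phase 60-120, and without the 3 arrays of the highest TDH1 ratio 3 were high and 3 low in phase 0-60. SEC17 encodes the alpha-SNAP protein, which with Sec18 takes used SNARE bundles apart. SEC17 signals in phase 0-60 were 1944 at the lowest, 3227 at the median and 3836 at the highest, against 3284 to 5339.9 elsewhere with a median of 4119.7, and 4 of the 8 samples lay below all others. The log2 difference was -0.495 (SE 0.069, 0.710-fold, adjusted p = 1.55e-08). In phase 60-120 SEC17 was high, with 6 of 8 samples above all others (0.33, SE 0.069, adjusted p = 6.68e-05). SEC18, its partner, was high in phase 60-120 (0.26, SE 0.061) but not called in phase 0-60 (0.09, adjusted p = 0.165).

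SEC22, a SNARE of ER to Golgi vesicles, was called in all 6 windows. SEC22 signals in phase 60-120 were 2177 at the lowest, 2313 at the median and 2409 at the highest, with 5 of 8 samples above all others (log2 difference 0.33, SE 0.033, 1.26-fold, adjusted p = 2.04e-11). It was also high in phase 0-60 (0.10, SE 0.033, adjusted p = 0.00572) and in phase 120-180 (0.14), and low in the other 3 windows, by -0.24 in phase 240-300. Its call in phase 0-60 was lost as deposited (adjusted p = 0.202), in even samples (0.540) and without the 3 arrays of the highest TDH1 ratio (0.0637). Its partners on the same vesicles peaked earlier: BOS1 had 7 of 8 samples of phase 0-60 above all others (0.24, SE 0.036), and BET1 had 4 (0.29, SE 0.049), and neither passed the test in phase 60-120. SEC20, a SNARE for return to the ER, had the smallest fitted range of the role (0.18, 1.14-fold), with signals of 1165 to 1491 in phase 0-60 and a median of 1321 against 1429 elsewhere (log2 difference -0.10, SE 0.035, adjusted p = 0.00632). Its call in phase 0-60 was lost as deposited (adjusted p = 0.447) and in odd and even samples (0.177 and 0.055).

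SEC39 and BET3, each a subunit of a tethering complex, were low in phase 60-120. All 8 SEC39 samples of phase 60-120, at 1148 to 1388, lay below all 39 others, at 1407 to 1778 (log2 difference -0.34, SE 0.034, adjusted p = 1.81e-11). For BET3 the margin was smaller (-0.185, SE 0.036). Both had the peak of their running mean at high phase angles, at 299.17 degrees for SEC39 and 322.77 for BET3. YPT1, the Rab GTPase of this step, was low and then high (-0.185 and 0.19). SEC14, the lipid transfer protein of the Golgi, was high in phase 0-60, at 4847 to 8753 with a median of 6573 against 4837 elsewhere (0.41, SE 0.064, adjusted p = 2.26e-07).

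The exocyst genes took a common course. The 8 exocyst subunits were taken with the Rab GTPase SEC4 and its exchange factor SEC2. In phase 0-60, 9 of the 10 were low and none high, beside 43.2% and 39.8% of all probe sets. All 10 were high in phase 60-120, beside 38.2%. Low and then high was also the course of 25.4% of all. With the values as deposited 6 of the 10 were low in phase 0-60 and 5 high in phase 60-120, with no called gene changing direction. With quantile normalization these counts were 8 and 10. SEC6 signals in phase 0-60 were 2000.4 at the lowest, 2495 at the median and 2790.2 at the highest, against 2897 to 4467 elsewhere with a median of 3483. The groups did not overlap. The log2 difference was -0.56 (SE 0.051, 0.680-fold, adjusted p = 2.65e-13), followed by 0.25 in phase 60-120 (SE 0.051, adjusted p = 3.05e-05) and 0.30 in phase 120-180. SEC5 likewise had all 8 samples of phase 0-60, at 1357 to 1807, below all others, at 2018 to 3024 (-0.58, SE 0.052, adjusted p = 1.35e-13). SEC15, which binds Sec4 on the vesicle, and SEC8 each had 6 of 8 samples below all others (-0.47 and -0.42).

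SEC2, the exchange factor for Sec4, had a wide spread between neighbouring samples. Its signals in phase 0-60 were 236 at the lowest, 633 at the median and 999.5 at the highest, against 565 to 1150.0 elsewhere with a median of 785, and 3 of the 8 samples lay below all others. The low point was at 9.7 degrees, and the last sample of the window stood above the median of the rest. The log2 difference was -0.44 (SE 0.125, 0.739-fold, adjusted p = 0.00157), and 0.38 in phase 60-120 (SE 0.125, adjusted p = 0.00671). In odd samples the call in phase 0-60 was lost (adjusted p = 0.0714). That in phase 60-120 was lost as deposited (0.0561) and in odd and even samples (0.113 and 0.0582). SEC4 itself was high in phase 60-120, where 7 of 8 samples lay above all others (0.33, SE 0.043, adjusted p = 1.06e-08), and low in phase 0-60 (-0.17).

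EXO84 had the smallest fitted range of all called members (0.17, 1.12-fold). EXO84 signals in phase 0-60 were 964 at the lowest, 995 at the median and 1232 at the highest, against 981 to 1354 elsewhere (log2 difference -0.09, SE 0.041, adjusted p = 0.0344). The groups overlapped, and without the 3 arrays of the highest TDH1 ratio EXO84 passed neither this test (adjusted p = 0.408) nor that of the phase angle (adjusted p = 0.0698). The call in phase 0-60 was also lost as deposited (adjusted p = 0.538), with quantile normalization (0.175) and in odd and even samples (0.164 and 0.216). That for the phase angle was also lost as deposited, in odd and even samples and with a linear term in time (adjusted p from 0.0896 to 0.4495). EXO70, the subunit not called in phase 0-60 (-0.010, adjusted p = 0.832), was high in phase 60-120 (0.16, SE 0.044).

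At the plasma membrane, the genes of a pair did not move together. Phase 0-60 had 2 of the 6 fusion genes high and 3 low, beside 39.8% and 43.2% of all probe sets. Phase 60-120 had 2 high and 2 low, beside 38.2% and 30.6%. With 6 genes, these counts were not far from those shares. As deposited, 1 was high and 2 low in phase 0-60, and 1 high and 1 low in phase 60-120. SNC1 encodes a SNARE of the secretory vesicle. SNC1 signals in phase 0-60 were 1581 at the lowest, 2633 at the median and 3460.0 at the highest, against 3819.5 to 7349 elsewhere with a median of 5465. All 8 samples of the window lay below all others. SNC1 was low, with a log2 difference of -1.115 (SE 0.090, 0.462-fold, adjusted p = 8.52e-15). In phase 60-120 it was high by 0.23 (SE 0.090, adjusted p = 0.0233). That call was lost as deposited (adjusted p = 0.102), with quantile normalization (0.239) and in odd and even samples (0.160 and 0.159). Its relative SNC2 was not called in phase 0-60, at 4193 to 8000.4 with a median of 6037 against 6246 elsewhere (-0.06, SE 0.075, adjusted p = 0.432), where it went from its highest signal at 17.35 degrees down to near its lowest, reached at 63.27 degrees. It was low in phase 60-120 (-0.21, SE 0.075, adjusted p = 0.0126).

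SSO1 and SSO2 encode the partner SNARE on the plasma membrane. SSO1 signals in phase 0-60 were 4764 at the lowest, 5956 at the median and 7281 at the highest, with 5 of 8 above all others, and the log2 difference was 0.31 (SE 0.044, 1.24-fold, adjusted p = 2.55e-08). SSO2 signals were 2331 at the lowest, 2592 at the median and 2784 at the highest, with 5 of 8 below all others, and the difference was -0.31 (SE 0.049, 0.808-fold, adjusted p = 2.24e-07). In phase 60-120 the directions turned, with SSO1 low (-0.16, SE 0.044, adjusted p = 0.00112) and SSO2 high (0.21, SE 0.049, adjusted p = 0.000221). There the call of SSO1 was lost as deposited (adjusted p = 0.102) and in even samples (0.122), and that of SSO2 in even samples (0.115). SEC9 encodes the third SNARE of the bundle. It was high in phase 0-60, at 2097.5 to 3451 with a median of 2579 against 2336 elsewhere, with 3 of 8 samples above all others (0.19, SE 0.055, adjusted p = 0.00198), although the curve over all phases did not pass. The call in phase 0-60 was lost as deposited (adjusted p = 0.0885) and in even samples (0.123). The SEC9 curve passed with quantile normalization (adjusted p = 0.0473), with an array number term (0.0411) and without the 3 arrays of the highest TDH1 ratio (0.00845). SEC1, which binds the assembled SNAREs, was low in phase 0-60, at 867 to 1046 with a median of 961 against 1048.5 elsewhere (-0.11, SE 0.043, adjusted p = 0.0200). That call was lost without the 3 arrays of the highest TDH1 ratio (adjusted p = 0.111) and as deposited (0.433). It was also lost with quantile normalization (0.1705) and in odd and even samples (0.157 and 0.162).

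**Figure D3:**
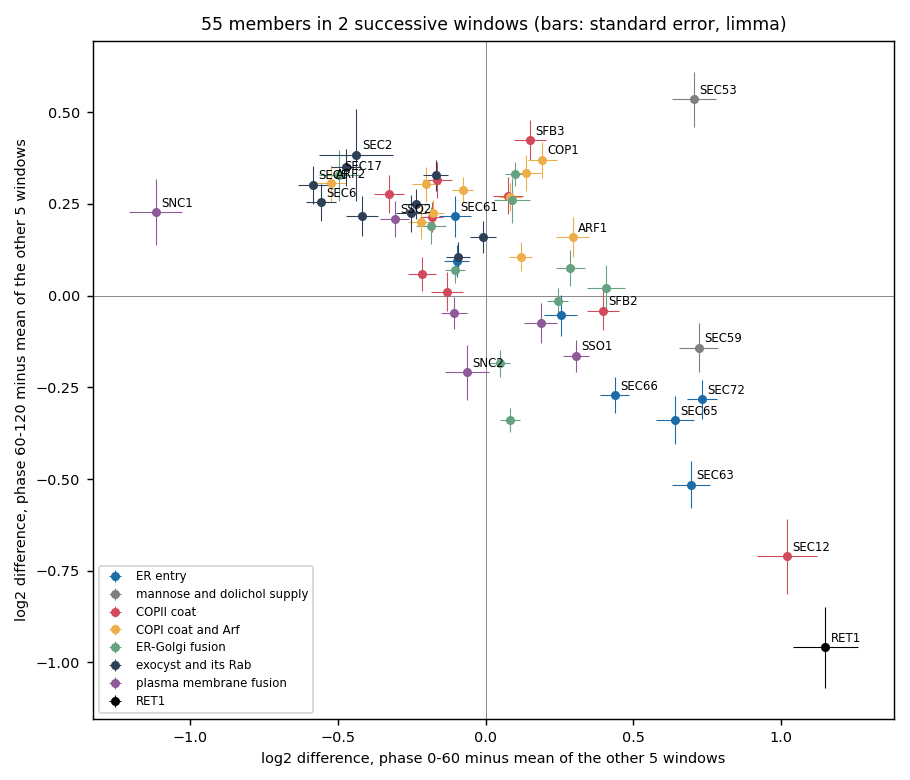
Log2 difference of each of the 55 members from the mean of the other 5 windows, in phase 0-60 along the x axis and in phase 60-120 along the y axis, with standard errors from limma as bars and colours by role. The exocyst genes fill the upper left (low, then high), SEC12, RET1 and 4 ER entry genes lie farthest to the lower right (high, then low), and SEC53 lies farthest to the upper right with 0.705 and 0.54.

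The ratio of related genes within an array does not depend on the scaling of the arrays, and shows only that the genes of a pair changed unequally. For 6 pairs the log2 ratio was fitted with the same 2-harmonic curve and the phase angles were permuted (one-sided permutation test of the variance accounted for, 100000 permutations). All 6 gave p = 1e-05, the smallest these permutations can give, and the same value after Benjamini-Hochberg adjustment over the 6. Permuting breaks the order of successive samples, which are not independent. Other pairs of probe sets were not tested, and 94.4% of all probe sets were called for the phase angle by limma. The 6 results therefore do not set these pairs apart from other pairs. The log2 ratio of SSO1 to SSO2 was 1.203 ± 0.216 in phase 0-60 (SD, n = 8), 0.379 ± 0.204 in phase 60-120 (SD, n = 8) and 0.639 ± 0.235 in the other windows (SD, n = 31), and the curve accounted for 0.751 of its variance.

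The ratio of SNC1 to SNC2 had the widest range, from -2.34 at 17.35 degrees to 0.20 at 93.89 degrees, a factor of 5.80. It was -1.231 ± 0.694 in phase 0-60 (SD, n = 8) against -0.227 ± 0.114 in the windows from 120 to 360 degrees (SD, n = 31). ARF1 to ARF2 went from 0.443 ± 0.410 in phase 0-60 (SD, n = 8) to -0.360 ± 0.128 in phase 60-120 (SD, n = 8), and was -0.382 ± 0.109 in the 4 windows from 120 to 360 degrees (SD, n = 31). Every sample of phase 0-60 had a higher ratio (lowest -0.006) than any sample of those 4 windows (highest -0.158). The ratio of SEC24 to SFB2 was 0.713 ± 0.073 in phase 0-60 (SD, n = 8) and 1.409 ± 0.411 in phase 60-120 (SD, n = 8), without overlap between phase 0-60 (highest 0.812) and the same 4 windows (lowest 0.894). SEC24 to SFB3 was lower in both early windows, at 0.059 ± 0.208 and 0.162 ± 0.184 (SD, n = 8 each), than in those 4, at 0.451 ± 0.094 (SD, n = 31). SFB2 to SFB3 had its lowest value in the sample at 93.89 degrees, -1.517. Cross-hybridisation between such close relatives was not tested.

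**Figure D4:**
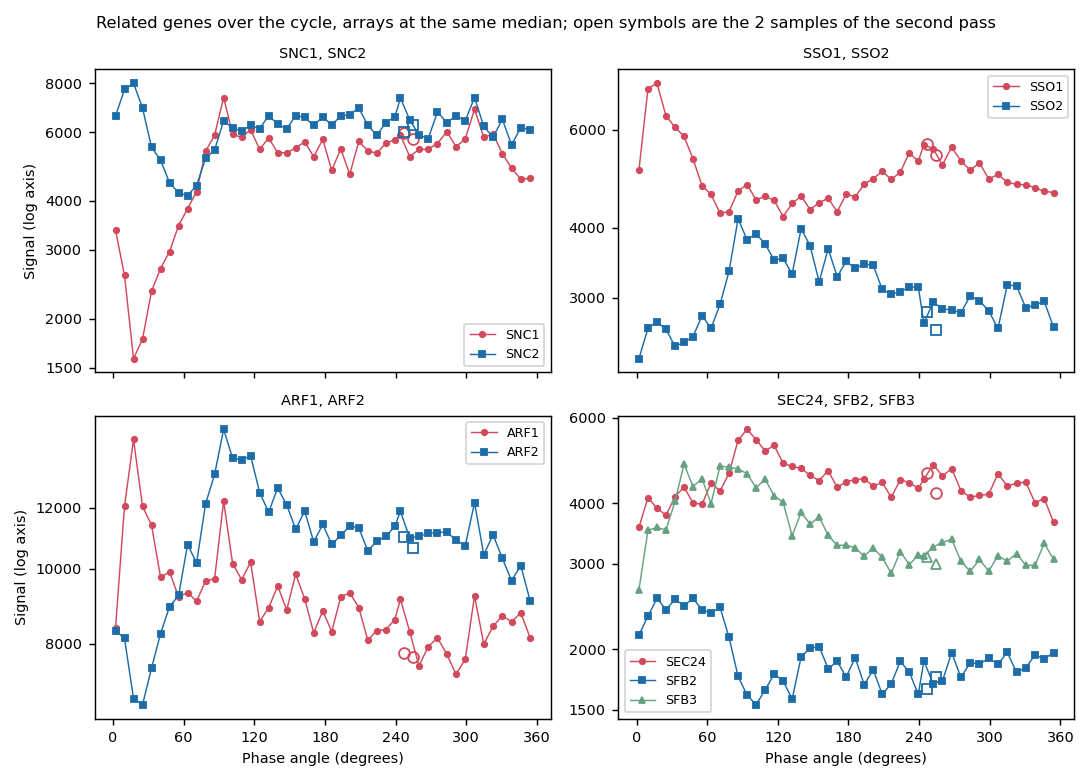
Signal, on a log axis, of 4 sets of related genes against the phase angle in degrees, 1 point per sample, with open symbols for the second pass. SNC1 dips to 1581 at 17.35 degrees where SNC2 has its highest signal (8000.4), SSO2 has its highest signal (4156) at 86.24 degrees and SSO1 at 17.35 degrees (7281), ARF1 peaks at 17.35 degrees and ARF2 at 93.89 degrees, and SFB2 drops while SEC24 climbs between 60 and 120 degrees.

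The highest running mean of 3 samples was dated for each gene, and the roles overlapped in its time. The peak fell in phase 0-60 for 19 members and in phase 60-120 for 32, with 2 in phase 120-180, 1 in phase 240-300 and 1 in phase 300-360. The median peak was at 17.35 degrees for the 7 ER entry genes, 86.24 degrees for the 10 genes of COPI and Arf, 97.72 degrees for the 10 exocyst genes and 101.55 degrees for the 9 COPII genes. It was 74.755 degrees for ER to Golgi fusion and 55.62 degrees for plasma membrane fusion. Peaks of the ER entry genes spanned 9.7 to 101.55 degrees, those of COPI and Arf 17.35 to 101.55 and those of COPII 9.7 to 124.51. Exocyst peaks all lay between 63.27 and 116.85 degrees. The values as deposited, without scaling of the arrays, put 38 peaks in phase 0-60 and 12 in phase 60-120. The peak times by role, that of the exocyst included, are therefore those of the scaled arrays only. The arrays at 47.97, 55.62 and 63.27 degrees had median signals of 2582, 2360.0 and 2519 before scaling, 2582 being the highest of all 49. The genes that rose and fell the most between running peak and trough were RET1 (6.14-fold), SEC12 (5.18-fold), SNC1 (3.39-fold), SEC2 (2.96-fold) and SEC63 (2.75-fold), named here after their values were seen.

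**Figure D5:**
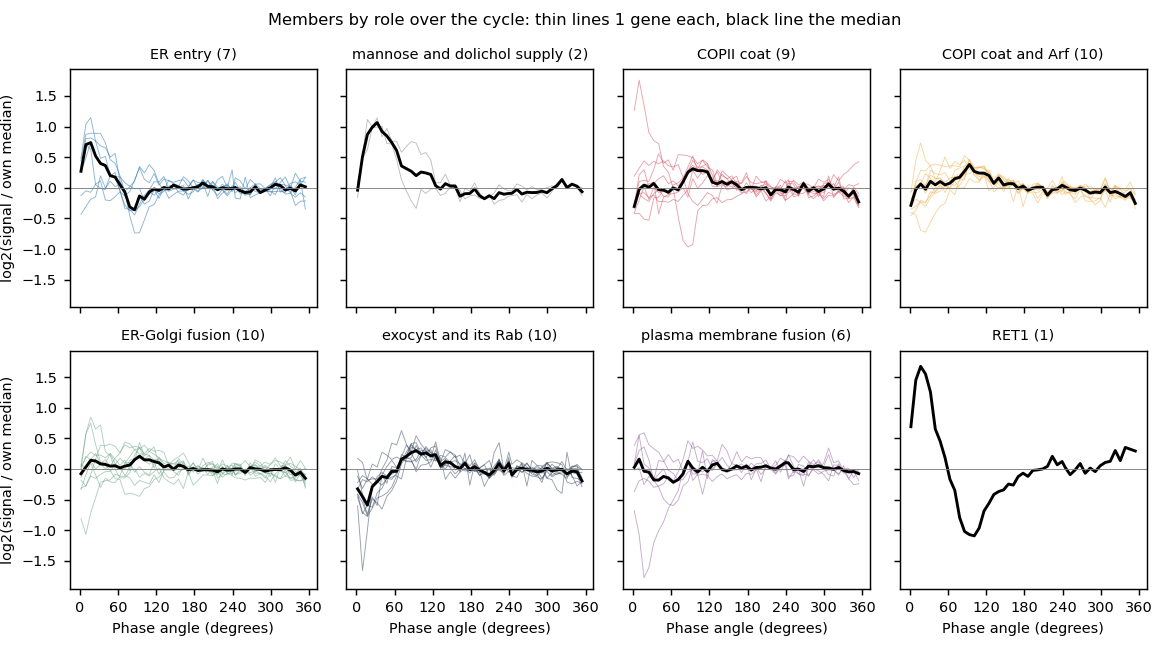
Log2 ratio of signal to the gene's own median against the phase angle in degrees, in 8 panels by role, with 1 thin line per gene and the median in black. The black line of the ER entry genes is high early and dips near 86.24 degrees, and that of the exocyst genes does the opposite.

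Exocyst subunits and coatomer subunits each varied together across the 49 samples. The samples share arrays and the phase angle, so the correlations are descriptions only. The median Pearson correlation was 0.686 over the 28 pairs of the 8 exocyst subunits and 0.557 over the 21 pairs of the 7 coatomer subunits, against 0.011 over all pairs of probe sets tested. Within the 10 genes of ER to Golgi fusion it was 0.033, and within the 6 of plasma membrane fusion 0.093. Between roles it was -0.558 for ER entry with exocyst genes and 0.422 for COPI with exocyst genes.

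Between 120 and 360 degrees fewer members stood apart. In phase 120-180, 13 members were high and 7 low, beside 20.7% and 22.3% of all probe sets, and SEC6 (0.30, SE 0.051), SEC8 (0.26, SE 0.055), SNC1 (0.24, SE 0.090) and SSO2 (0.23, SE 0.049) had the highest differences. In phase 180-240 no member was high by limma, beside 7.9% of all, although 2 had an unadjusted p under 0.05, and 5 were low, beside 6.84%. In phase 240-300, 3 were high and 8 low, beside 14.5% and 14.4%, and the 3 were SNC1, SSO1 and SEC39. In phase 300-360, SEC39 alone was high, beside 12.5%, and 15 were low, beside 13.8%, among them 6 of the 10 COPI and Arf genes. COP1 (-0.26, SE 0.052) and SEC22 (-0.235, SE 0.035) were the lowest there.

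RET1, taken in by its symbol, moved more than any of the other 54. Its signals in phase 0-60 were 2653 at the lowest, 4677 at the median and 7457 at the highest, with 7 of 8 samples above all others, and in phase 60-120 they were 1096 at the lowest, 1272 at the median and 2078.5 at the highest. The log2 differences were 1.15 (SE 0.110, 2.22-fold, adjusted p = 9.13e-13) and -0.96 (SE 0.110, 0.515-fold, adjusted p = 4.30e-10). Over the 49 samples its Pearson correlation with SEC12 was 0.911 and its median correlation with the 10 exocyst genes was -0.820.

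A further 90 genes of the same route, listed by function, showed where the members' neighbours in the pathway stood. Of the 90, 50 were high and 19 low in phase 0-60, and 37 high and 21 low in phase 60-120, and 86 were called for the phase angle. As shares these are 55.6% and 21.1%, beside 39.8% and 43.2% of all probe sets, then 41.1% and 23.3%, beside 38.2% and 30.6%, and 95.6% beside 94.4%. Phase 0-60 had 14 of 17 ER import partners high and 2 low, and their median difference was 0.34. Phase 60-120 had 4 high and 6 low (35.3%, near the share of all), and the median was -0.03, whereas the median of the 7 ER entry members was -0.27. SPC2, a signal peptidase subunit, was high in phase 0-60 by 0.72 (SE 0.080) and low in phase 60-120 by -0.27. Of the other SPC genes listed, SPC1 was low (-0.59, SE 0.084) and SPC3 high (0.17, SE 0.037) in phase 0-60. KAR2, the main Hsp70 chaperone of the ER, was low in phase 0-60 (-0.41, SE 0.060). Genes of oligosaccharyl transferase and O-mannosylation were high in 10 of 17 cases in phase 0-60 and low in 2, and high in 9 and low in 1 in phase 60-120, led by PMT4, a protein O-mannosyltransferase (1.08, SE 0.100 in phase 0-60).

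Golgi mannosyltransferases were high in 10 of 11 cases in phase 0-60 with none low (median log2 difference 0.65), and in phase 60-120 3 were high and 5 low. MNN1, which adds the terminal mannose to cell wall chains, had a mean signal of 5191 ± 980.0 (SD, n = 8) in phase 0-60, and of 1555 ± 972 (SD, n = 8) in phase 60-120, with log2 differences of 1.57 (SE 0.133) and -0.73 (SE 0.133). Of 14 cargo receptors and coat regulators, 8 were high and 2 low in each window, and ERV29, a receptor for soluble cargo, was low in phase 0-60 (-0.845, SE 0.075). Of 17 other tethers and SNAREs, 5 were high and 7 low in phase 0-60 and 6 and 6 in phase 60-120. SED5, the SNARE of the early Golgi, was high in phase 0-60 (0.72, SE 0.055). Of the TRAPP tether subunits in this list, BET5, TRS20, TRS31 and TRS33 were high there (0.735, 0.45, 0.475 and 0.455). TRS23, another, was low (-0.93, SE 0.062). BET3, the TRAPP subunit among the members, was not called in that window (0.05, adjusted p = 0.207).

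Of 8 genes of clathrin and its adaptors, 2 were high and 4 low in phase 0-60, and 6 were high with none low in phase 60-120. The clathrin chains CHC1 (-0.68, then 0.51) and CLC1 (-0.65, then 0.54) were low and then high like the exocyst genes, and GGA1, a Golgi adaptor, had a mean signal of 1023.5 ± 737 in phase 0-60 against 4020.3 ± 766 in phase 60-120 (SD, n = 8 each), a log2 difference of -2.22 in phase 0-60 (SE 0.209, 0.214-fold, adjusted p = 6.16e-13). GGA2, also in this list, was high in both windows (0.16, SE 0.030, then 0.20, SE 0.030). Of 6 other genes of late secretion, 1 was high and 2 low in phase 0-60, and 1 high and 1 low in phase 60-120. The genes of these lists given with values were picked after their values were seen.

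The 2 samples of the second pass, at 246.97 and 254.63 degrees of the next cycle, were set against the first 2 samples, at 244.11 and 251.97 degrees. The members' median log2 difference between the passes was -0.005, with a range from -0.224 for SEC2 to 0.214 for SEC13, and the median size of a difference was 0.05. Over all probe sets tested the median was 0.003 and the median size 0.06. The next cycle was sampled at these phases only, so the changes in phases 0-60 and 60-120 were each seen once.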

How the data were processed

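RNA of 49 successive samples was amplified with oligo(dT) primers, labelled with biotin and hybridised to 1 array each, per the labels' protocols. The authors deposited a signal for each probe set, which is a linear intensity, and made it with GCOS according to the submitters' processing notes. Version, summary method and scaling target were not given in the sources used here. Each array was set to the same median over the 5498 probe sets of 1 S. cerevisiae gene (5449 genes), a floor of 1 was applied, and signals were converted to log2. Probe sets with a median signal above 11.3, the 75th percentile of the medians of 1746 probe sets of other species, were tested, 5469 in all, and 29 were removed. The probes were designed on a reference strain while CEN.PK was hybridised, and the number of arrays limits the precision.

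The phase angle was fitted as cosines and sines with 2 harmonics over 49 samples, and each window was compared with the mean of the other 5 over 47 samples. Both used lmFit and eBayes of limma 3.58.1 in R 4.3.3, with Benjamini-Hochberg adjustment over all probe sets tested and a threshold of 0.05, and "high" and "low" refer to it. Ratios of related genes were tested with 100000 permutations. The fits were tested on simulated data. Named with full values were, for each role, the 2 called members with the largest and the 1 with the smallest fitted range, all members of the pairs and every member not called. Other members are named as examples of counts, after their values were seen. The members, roles, lists and tests were chosen with earlier results of these data known. Alternatives were the values as deposited, quantile normalization, other filters and an offset, odd or even samples, array number, time and intensity trend terms, other curves, a running mean of 5 and samples left out. Tables and plots were made in Python 3.11.15 with pandas 2.3.3, numpy 2.4.6 and matplotlib 3.10.9. Markers of mating type a (5 genes, median signals 2583 to 8854) and of mating type alpha (4 genes, 86.1 to 1285) were all above the filter, and since levels of different probe sets cannot be compared, they do not check the labelled mating type.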

Additional observations from a re-analysis of the deposited data

Results flagged for a closer look

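In 54 groups, each made of the samples of a named gene in phase 0-60 or 60-120, 3 held a sample that stood apart from the rest of its window by Dixon's criterion, and chance marks about 1 group in 20. SEC53 in phase 0-60 had a lowest signal of 6197, at 2.04 degrees, and the nearest sample stood at 10053.6. COP1 in phase 0-60 had a lowest signal of 4604.7, also at 2.04 degrees, and the nearest sample stood at 5869. That array is the first of the window. ARF1 in phase 60-120 had a highest signal of 12231.7, at 93.89 degrees, and the nearest sample stood at 10197. No cause was tested.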

How the results depend on the processing

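The number of members called for the phase angle was 54, and between 45 (even samples) and 55 over its alternatives. No called difference of a named gene changed sign, and no member called in phase 0-60 or 60-120 did so with the values as deposited, with quantile normalization, in odd or even samples, or without the 3 arrays of the highest TDH1 ratio, an alternative chosen after seeing the data. Counts moved by over 1.5 times as follows, by limma, with the values above in the report for comparison. As deposited, 15 members were high and 12 low in phase 0-60, 21 high in phase 60-120, 1 high and 1 low in phase 120-180, 1 low in phase 180-240, 0 high and 3 low in phase 240-300, and 0 high and 0 low in phase 300-360 (at an unadjusted p under 0.05, the 3 counts of 0 became 0, 1 and 1). With the same values the running mean peaked in phase 0-60 for 38 members and in phase 60-120 for 12, and the second pass differed from the first by a median of -0.336, beside -0.328 over all probe sets. With quantile normalization 20 members were high in phase 120-180, 2 in phase 180-240 and 3 in phase 300-360. In odd samples 2 were high and 1 low in phase 120-180, 1 low in phase 180-240, 0 high and 4 low in phase 240-300, and 0 high and 4 low in phase 300-360. In even samples 2 were high and 0 low in phase 120-180, 0 low in phase 180-240, 0 high and 1 low in phase 240-300, and 0 high and 1 low in phase 300-360. At an unadjusted p under 0.05 the counts of 0 high in these 2 subsets stayed 0, and the counts of 0 low were 4 and 3. The subsets hold fewer samples. The cause of the other moves was not tested. Shares of all probe sets called under these alternatives are not given here. The counts therefore do not tell a move of the members from one of the whole array. Without the 3 arrays 17 members were high and 24 low in phase 0-60. Leaving out either sample of the second pass gave medians of -0.035 to 0.009. For named genes, 839 alternative values kept their side of the threshold, 72 lost a call and 7 gained one, 22 of the losses as deposited and 37 in the subsets. No paired analysis was possible because the labels give no replicate numbers that windows share.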

Other observations

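Some members lie close together on chromosome IV. SEC5 and SEC1 have 1 gene between them in the RefSeq gene table, and their signals had a Pearson correlation of 0.413 over the 49 samples. SEC7 and SEC5 have 4 genes between them (0.475). SEC31, of the COPII coat, and ARF1, of the COPI route, have 2 genes between them (-0.181). The samples share arrays and the phase angle, so these values are descriptions.

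All 5 markers of mating type a cells were high in phase 0-60. STE2, the alpha factor receptor, had a mean signal of 11386 ± 3040.0 there and 5519.8 in phase 60-120 (log2 difference 1.11 in phase 0-60, SE 0.119). Over the 5, the log2 difference in phase 0-60 ran from 0.47 for MFA1 to 1.20 for BAR1. Of the 4 alpha markers 1 was high and 2 were low there. The high one, MF(ALPHA)1, had a mean signal of 1681.5 ± 676 in phase 0-60 and 279.6 ± 195 in phase 60-120 (SD, n = 8 in each), with log2 differences of 2.195 (SE 0.223, 4.58-fold, limma adjusted p = 5.35e-12) and -1.17 (SE 0.223), and its difference in phase 0-60 was above that of each of the 5 a markers. None was at 0 in the median, and the sum of the 4 had a median of 3109.5 in phase 0-60 and 2549 in the other samples. Their part in the results was not tested.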
